A study of Mus musculus with 4 samples.

Results

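The clustered protocadherins are a family of cell-surface adhesion proteins whose genes lie side by side on chromosome 18 in the α, β and γ clusters. Members were taken as the genes named Pcdha, Pcdhac, Pcdhb, Pcdhga, Pcdhgb or Pcdhgc with a number, which gave 56 of the 27293 genes measured. The α cluster had 13 members (11 Pcdha and 2 Pcdhac), the β cluster 22, and the γ cluster 21 (11 Pcdhga, 7 Pcdhgb and 3 Pcdhgc). Pcdha10 and Pcdhga10 were not analysed here.

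Total RNA from telencephalic tissue of C57BL/6 mouse embryos at embryonic day 13 (E13) was sequenced to compare wild-type embryos with embryos lacking STING, an adaptor of cytosolic DNA sensing, in neural progenitor cells. Of the 4 libraries, 2 carried the genotype WT (WT 1 and WT 2) and 2 the genotype STINGf/f;Nestin-Cre (cKO 1 and cKO 2). Reads on genes summed to 17209654 in WT 1 and 18533391 in WT 2, against 18237989 in cKO 1 and 18091688 in cKO 2. Nothing in the labels states that the libraries came from separate embryos, so a p-value measures the spread between these libraries only. In the cKO the Nestin promoter drives Cre recombinase in neural progenitors and their progeny, and both STING alleles are floxed, and cells outside that lineage are not targeted. WT 2 carries another abbreviation in its title than WT 1, and the meaning of that abbreviation is not given.

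Each neuron chooses a small, largely random set of clustered protocadherin promoters, and the proteins bind only to matching proteins on a neighbouring cell, which gives a neuron a surface identity used in self-avoidance of its branches. In the α and γ clusters each variable first exon, with its own promoter, is spliced to constant exons shared by the whole cluster, whereas a β gene is a single coding exon. The C-type members at the ends of the α and γ clusters are expressed more uniformly between neurons, and the factor CTCF and the cohesin ring join distant enhancers to the chosen promoters.

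All 56 members lay on the plus strand of chromosome 18 (GRCm38). The α cluster ran from 36930184 to 37187661, the β cluster from 37264938 to 37524479 and the γ cluster from 37661793 to 37841873. Tmem173 (ENSMUSG00000024349), an older symbol for the gene of STING, lay on the same chromosome from 35733678 to 35740554, 1.19 Mb before Pcdha1. Its count was 20 in WT 1 and 19 in WT 2, against 18 in cKO 1 and 22 in cKO 2. The groups overlapped, and the log2 fold change of cKO over WT was 0.02 (standard error 0.45), so the counts did not separate the genotypes. A gene-level count adds reads from inside and outside the floxed part, and the genotypes are taken from the labels.

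The libraries differed in markers of other tissue before any member was compared. The 8 meningeal and mesenchymal genes summed to 302 CPM (counts scaled to equal library size) in WT 1 and 54.6 in WT 2, against 80.4 in cKO 1 and 41.6 in cKO 2, with Col3a1 the most abundant. The 6 choroid plexus genes found, of 8 listed, summed to 58.5 CPM in WT 1 and 9.60 in WT 2, against 7.02 in cKO 1 and 8.73 in cKO 2, with Otx2 the most abundant, while Ttr and Clic6 were not analysed here. WT 1 thus stood apart in both lists. WT 2 stood apart in another way, with a count of 0 for all 4 Y-linked genes (Uty, Kdm5d, Eif2s3y and Ddx3y), which summed to 2735 counts in WT 1, 3002 in cKO 1 and 1848 in cKO 2. Defining markers of the labelled tissue were present. The 9 cortical progenitor genes summed to 2788 CPM in WT 1 and 2656 in WT 2, against 2893 in cKO 1 and 2713 in cKO 2. The 8 cortical neuron genes, the cells in which the protocadherins are best known, summed to 5511 CPM in WT 1 and 6353 in WT 2, against 6048 in cKO 1 and 5331 in cKO 2, with Tubb3 the most abundant. WT 2 had the highest neuronal sum and was the highest library for 3 of the 8 genes, against 16.8% of the 16145 genes tested below. Tubb3 was highest in cKO 2. Each of the 8 was higher in WT 2 than in WT 1, in Map2 by little, against 45.6% of genes tested. cKO 2 was the lowest library for 5 of the 8, against 35.1% of genes tested. These counts were taken after the values were seen. Dcx was at 864 CPM in WT 1 and 1107 in WT 2, against 1084 in cKO 1 and 517 in cKO 2. None of the progenitor or neuronal genes listed was at 0 in all libraries.

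As a family, the members were highest in WT 2. The 56 members together summed to 271 CPM in WT 1 and 329 in WT 2, against 281 in cKO 1 and 269 in cKO 2. The WT 2 value was 1.21 times that of WT 1 and 1.17 times that of the next highest library, cKO 1, whereas WT 1 lay between the cKO libraries. The WT mean was 300 ± 41.0 CPM and the cKO mean 275 ± 8.24 CPM (SD, n = 2 each), a log2 ratio of -0.13. The difference between the genotypes was smaller than the spread between the WT libraries. In bulk tissue, fewer cells that express a gene and less RNA per cell cannot be told apart. With 2 libraries per group, an exact two-sided permutation test of such a sum cannot fall below p = 0.333, so no test of the sums was made.

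**Figure D1:**
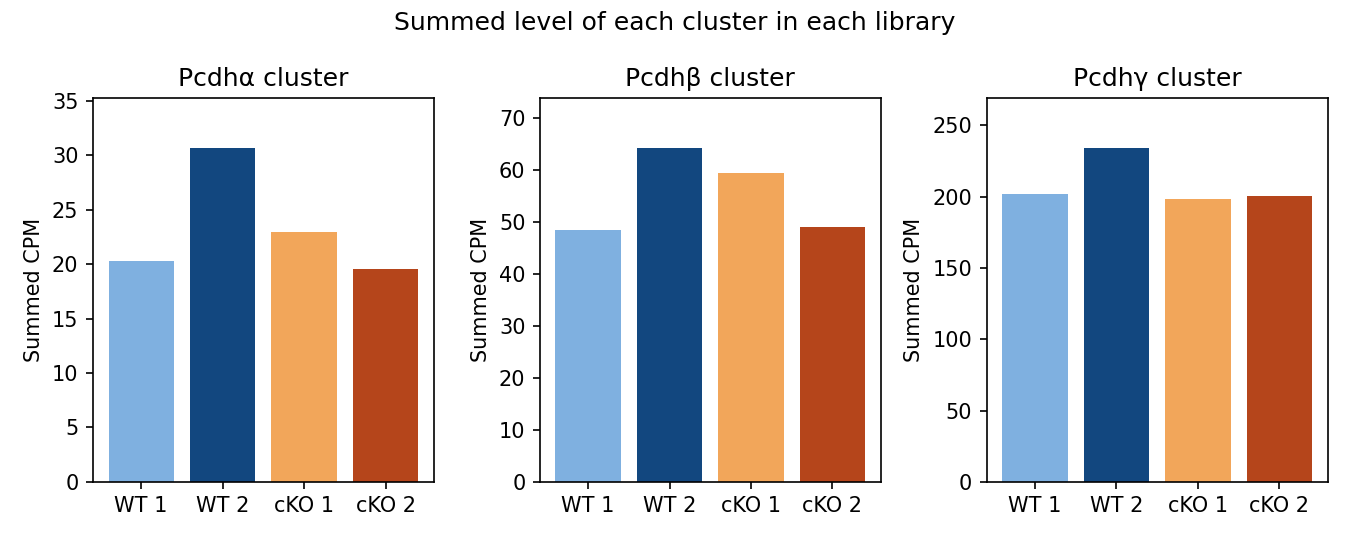
Bars give the summed CPM of the 13 α, 22 β and 21 γ members in each library, on a separate axis from 0 for each cluster. WT 2 is the highest library in each panel, and WT 1 lies near both cKO libraries for α and γ, but near cKO 2 only for β.

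The α sum was 20.3 CPM in WT 1 and 30.6 in WT 2, against 23.0 in cKO 1 and 19.6 in cKO 2. WT 2 was 1.51 times WT 1, and WT 1 fell inside the cKO range, so the log2 ratio of -0.26 rested on WT 2. The β sum was 48.5 CPM in WT 1 and 64.3 in WT 2, against 59.5 in cKO 1 and 49.0 in cKO 2. WT 2 and cKO 1 were high, WT 1 and cKO 2 were low, and the log2 ratio was -0.05. The γ sum was 202 CPM in WT 1 and 234 in WT 2, against 198 in cKO 1 and 201 in cKO 2. Both cKO libraries were lower than either WT library, although WT 1 exceeded cKO 2 by little, and the log2 ratio was -0.13. Without WT 2 the ratios were 0.07 for α, 0.16 for β and -0.02 for γ, and without WT 1 they were -0.53, -0.24 and -0.23, and the clusters were not compared by a test. The γ cluster held 74.6% of the members' CPM in WT 1 and 71.1% in WT 2, against 70.6% in cKO 1 and 74.5% in cKO 2, and the α cluster 7.49% in WT 1 and 9.32% in WT 2, against 8.18% in cKO 1 and 7.27% in cKO 2.

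The same contrast between the WT libraries was present gene by gene. Of 51 members with enough counts to be tested, 40 were higher in WT 2 than in WT 1, against 45.6% of the 16145 genes tested. WT 2 was the highest of the 4 libraries for 27 members, against 16.8% of genes tested. cKO 2 exceeded cKO 1 for 21 members, against 49.9% of genes. The median log2 ratio of WT 2 over WT 1 was 0.52 for α, 0.38 for β and 0.21 for γ members, and -0.03 over all genes tested. The WT replicates therefore differed from each other more, across the members, than the median difference between genotypes described next. The part of the neuronal, meningeal, choroid plexus and Y-linked differences between WT 1 and WT 2 in this was not tested.

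For the comparison of genotypes, counts of all genes were fitted with edgeR's quasi-likelihood test, and a gene was called when it differed by a fold of 2 or more and its unadjusted p did not exceed 0.05, the thresholds of the study's methods. The members not tested, because of low counts, were Pcdha1, Pcdha4, Pcdha8, Pcdhb1 and Pcdhb12, with 0 to 9 counts in any library. Called members numbered 3 of 51, against a background of 0.811% of the 16145 genes tested. Pcdhb8 and Pcdhb9 were lower in the cKO, where 0.669% of all genes were called lower, and Pcdhgb8 was higher, where 0.142% were called higher. At an unadjusted p of at most 0.05 with any fold, 5 members passed in edgeR, against 1.23% of genes, and 3 in DESeq2, where Pcdhb6 and Pcdhga2 did not. None of the 16145 genes tested had an adjusted p under 0.05 in edgeR or in DESeq2, where 199 and 127 genes had an unadjusted p of at most 0.05, and the adjusted p of each tested member was 0.9999 (edgeR, Benjamini-Hochberg). The calls thus hold at the unadjusted threshold only. Without the count filter, 65 of 27293 genes had an adjusted p under 0.05, none of them a member.

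The fitted log2 fold change was below 0 for 32 of the 51 members and above 0 for 19, against 52.1% below 0 over all genes. The median was -0.35 for α, -0.02 for β and -0.14 for γ members, and -0.01 over all genes tested. Without WT 2 the members below 0 numbered 22 of 51, and the medians were -0.06, 0.16 and 0.01. Without WT 1, which stood apart in meningeal and choroid plexus genes, they numbered 39 of 51, and the medians were -0.60, -0.29 and -0.24. Both cKO values were lower than either WT value for 12 members, against 11.2% of genes tested, and higher than either for 4 members, against 10.4%. Of the 12, 7 were Pcdhga genes.

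**Figure D2:**
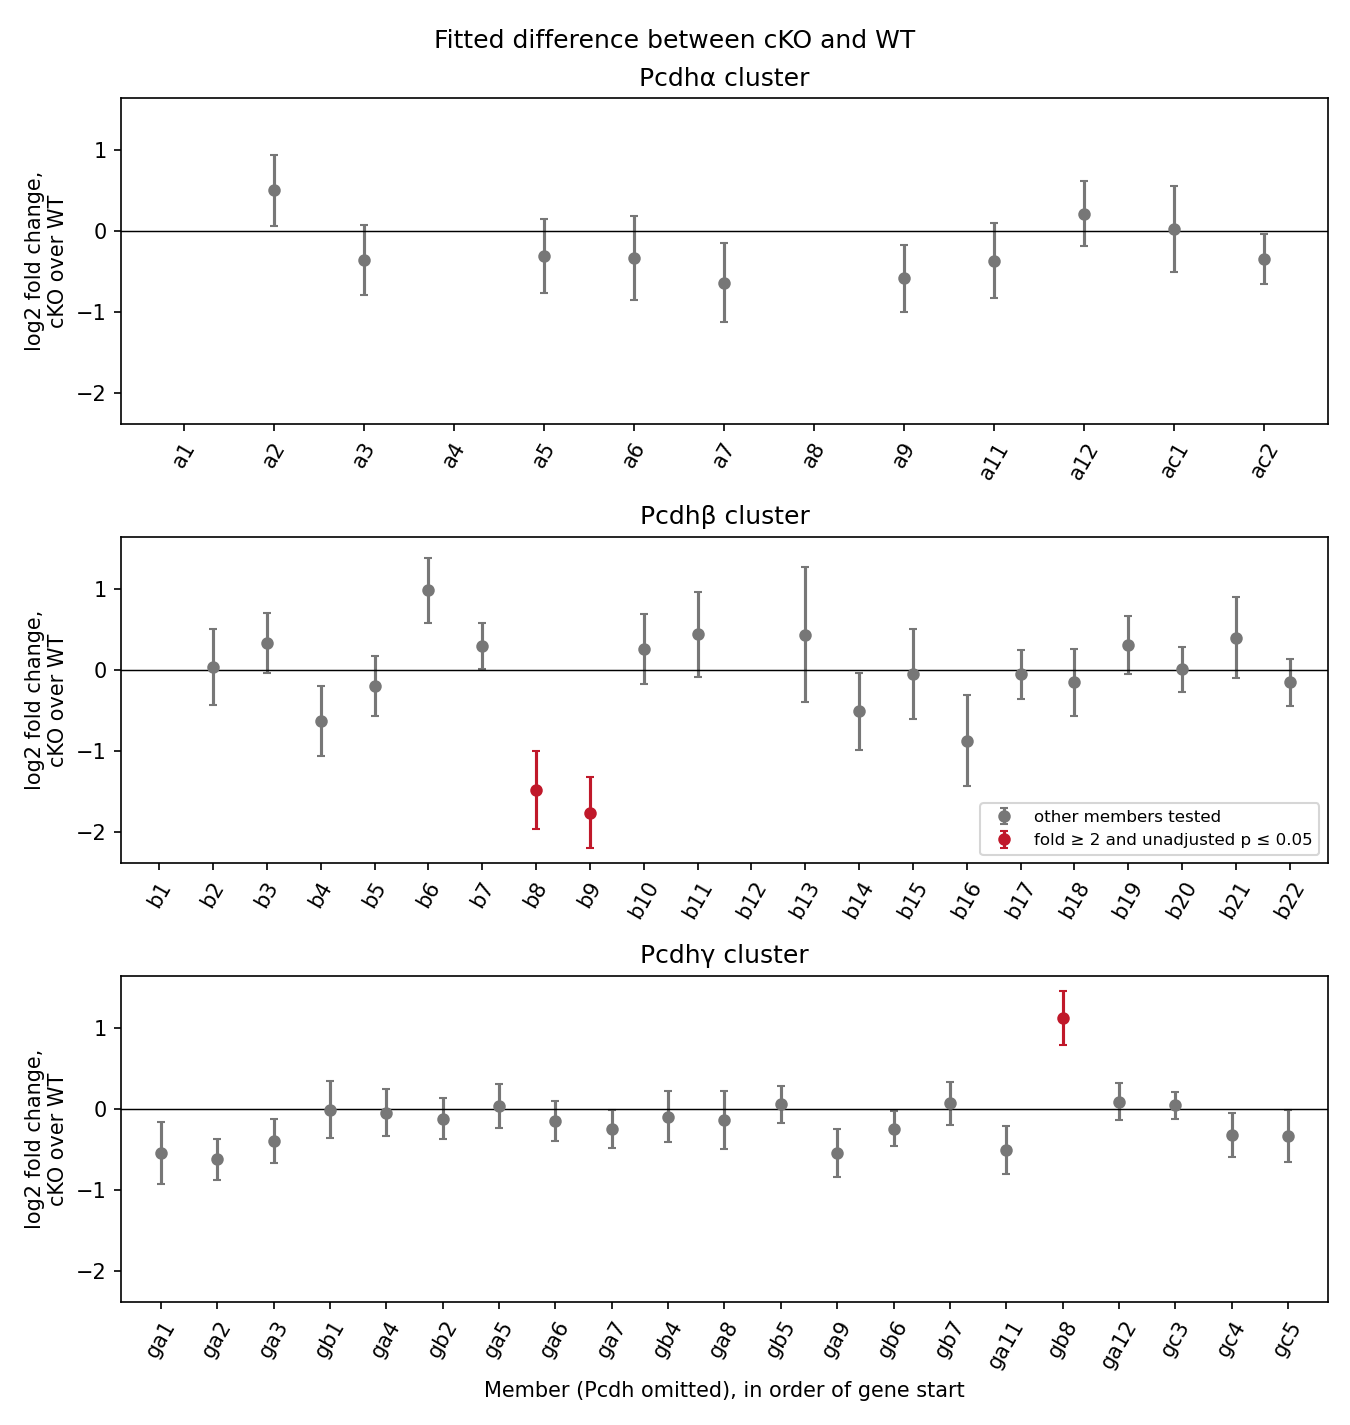
Points give the fitted log2 fold change of cKO over WT of each member tested and bars its standard error, in order of gene start, with the called members in red. Pcdhb8 and Pcdhb9 at -1.48 and -1.76 and Pcdhgb8 at 1.12 lie apart from their neighbours, and most other bars reach or lie near 0. Members without a point were not tested. Without WT 2 the signs of several members turn, among them Pcdha3 from -0.36 to 0.15 and Pcdhgc4 from -0.33 to 0.06.

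Within the α cluster no member was called, and every unadjusted p exceeded 0.05, in edgeR as in DESeq2. Pcdha1, the first member, had 0 counts in WT 1 and 5 in WT 2, against 6 in cKO 1 and 6 in cKO 2, too few to test. Pcdha9, a variable α member, had 34 counts in WT 1 and 62 in WT 2, against 33 in cKO 1 and 31 in cKO 2. WT 2 alone was high, WT 1 sat just above the cKO libraries, and the log2 fold change was -0.59 (standard error 0.41), or -0.13 without WT 2. Pcdha7 had 29 counts in WT 1 and 44 in WT 2, against 32 in cKO 1 and 15 in cKO 2. The groups overlapped, with cKO 2 low, and the log2 fold change was -0.65 (standard error 0.49), from -1.27 to -0.20 when a library was left out. Pcdha3 had 28 counts in WT 1 and 54 in WT 2, against 31 in cKO 1 and 33 in cKO 2. Again WT 2 alone was high, and the log2 fold change of -0.36 became 0.15 without WT 2. All 8 Pcdha genes tested were higher in WT 2 than in WT 1.

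Pcdha2 and Pcdha12 had positive log2 fold changes, and neither was called. Pcdha2 had 20 counts in WT 1 and 35 in WT 2, against 33 in cKO 1 and 45 in cKO 2. WT 1 was low and WT 2 lay between the cKO libraries, with a log2 fold change of 0.50 (standard error 0.44), the highest in the cluster. Pcdha12, the last variable α member, had 28 counts in WT 1 and 39 in WT 2, against 34 in cKO 1 and 44 in cKO 2. The groups overlapped, and the log2 fold change was 0.21 (standard error 0.40).

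The C-type α members differed widely in level. Pcdhac1 had 18 counts in WT 1 and 15 in WT 2, against 23 in cKO 1 and 11 in cKO 2. The WT libraries lay between the cKO libraries, and the log2 fold change was 0.02 (standard error 0.53). Pcdhac2, the last member of the cluster, had 133 counts in WT 1 and 208 in WT 2, against 161 in cKO 1 and 108 in cKO 2. The groups overlapped, with WT 2 highest and cKO 2 lowest, and the log2 fold change of -0.35 (standard error 0.31) was -0.03 without WT 2 and -0.09 without cKO 2. Pcdhac2 made up 36.1% of the mean CPM of the α cluster.

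The β cluster held the lower calls. Pcdhb9 (ENSMUSG00000051242, 37400855 to 37403909) had 38 counts in WT 1 and 64 in WT 2, against 14 in cKO 1 and 16 in cKO 2. In CPM it measured 2.83 ± 0.880 in WT and 0.826 ± 0.0826 in cKO (SD, n = 2 each). Both cKO libraries lay well below both WT libraries, and the log2 fold change was -1.76 (standard error 0.44, unadjusted p of 0.00413 in edgeR). Pcdhb9 met the thresholds in each of the 10 alternative fits, those without 1 library included, with log2 fold changes from -2.06 to -1.38 when a library was left out. Its neighbour Pcdhb8 (ENSMUSG00000045876, 37355121 to 37358604) had 30 counts in WT 1 and 51 in WT 2, against 18 in cKO 1 and 11 in cKO 2. In CPM it measured 2.25 ± 0.713 in WT and 0.797 ± 0.268 in cKO (SD, n = 2 each). The groups did not overlap, and the log2 fold change was -1.48 (standard error 0.48, unadjusted p of 0.0153 in edgeR). Pcdhb8 met the thresholds in 8 of 10 alternative fits, and fell short without WT 2 (log2 fold change -1.09) and without cKO 2 (-1.18). Counts of this size are shallow, and those of Pcdhb8 and Pcdhb9 ran from 11 to 64.

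Near Pcdhb8 and Pcdhb9 no other member was called with all libraries, and the log2 fold changes were of either sign. Pcdhb4 had 30 counts in WT 1 and 55 in WT 2, against 29 in cKO 1 and 26 in cKO 2, with a log2 fold change of -0.63 (standard error 0.43), and -0.17 without WT 2. Pcdhb10, which follows Pcdhb9, had a log2 fold change of 0.25 (standard error 0.43), and Pcdhb5 of -0.20 (0.37). These 3 were named after their values were seen. Pcdhb6 had 29 counts in WT 1 and 29 in WT 2, against 72 in cKO 1 and 44 in cKO 2. Both cKO libraries lay above both WT libraries, and the log2 fold change of 0.98 (standard error 0.40, unadjusted p of 0.0404 in edgeR and 0.0906 in DESeq2) fell just short of a fold of 2. It was 0.60 without cKO 1, and 1.29 without cKO 2, where Pcdhb6 was called. Pcdhb7 had 87 counts in WT 1 and 122 in WT 2, against 133 in cKO 1 and 124 in cKO 2. The cKO libraries lay above WT 2 by little, with a log2 fold change of 0.29 (standard error 0.28). Pcdhb11 had 20 counts in WT 1 and 23 in WT 2, against 42 in cKO 1 and 17 in cKO 2. Here cKO 1 alone was high, and the log2 fold change of 0.44 (standard error 0.52) turned to -0.33 without cKO 1.

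Of the remaining β members none was called. Pcdhb1, the first of the cluster, had 3 counts in cKO 2 and 0 in the other libraries, which is no more than a count of 0 allows. Pcdhb17 had 99 counts in WT 1 and 172 in WT 2, against 130 in cKO 1 and 131 in cKO 2. The cKO libraries lay between the WT libraries, and the log2 fold change was -0.06 (standard error 0.31). Pcdhb22, the last β member, had 95 counts in WT 1 and 134 in WT 2, against 99 in cKO 1 and 108 in cKO 2. WT 2 alone was high, and the log2 fold change was -0.15 (standard error 0.29). Pcdhb16, named after its values were seen, had 31 counts in WT 1 and 77 in WT 2, against 42 in cKO 1 and 17 in cKO 2. The groups overlapped, with a log2 fold change of -0.88 (standard error 0.56). It met the thresholds only without WT 1 (-1.36) or without cKO 1 (-1.64), and was -0.12 without WT 2 and -0.37 without cKO 2. Pcdhb13, also named after its values were seen, had 3 counts in WT 1 and 20 in WT 2, against 8 in cKO 1 and 23 in cKO 2. It differed within both genotypes, with a log2 fold change of 0.43 (standard error 0.83). It met the thresholds only without WT 2 (2.28), and turned to -0.33 without WT 1 and -0.52 without cKO 2. In all, 10 β members tested were below 0 and 10 above.

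The γ cluster held the 1 higher call. Pcdhgb8 (ENSMUSG00000103081, 37761801 to 37841870), listed as a polymorphic pseudogene, had 74 counts in WT 1 and 48 in WT 2, against 143 in cKO 1 and 127 in cKO 2. In CPM it measured 3.44 ± 1.21 in WT and 7.43 ± 0.581 in cKO (SD, n = 2 each). Both cKO libraries lay above both WT libraries, WT 2 was lowest where most members had it highest, and the log2 fold change was 1.12 (standard error 0.33, unadjusted p of 0.00983 in edgeR). Pcdhgb8 met the thresholds in 9 of 10 alternative fits, and fell short without WT 2 (log2 fold change 0.82). The genes around it did not move with it. Pcdhga12, which follows it, had 169 counts in WT 1 and 215 in WT 2, against 201 in cKO 1 and 210 in cKO 2. WT 1 was lowest and the other libraries lay close together in CPM, with a log2 fold change of 0.09 (standard error 0.23).

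No Pcdhga gene was called, and 1 of 11 had an unadjusted p of at most 0.05. Pcdhga2 had 159 counts in WT 1 and 163 in WT 2, against 104 in cKO 1 and 107 in cKO 2. Replicates were close within each genotype, the groups did not overlap, and the log2 fold change was -0.62 (standard error 0.25, unadjusted p of 0.0392 in edgeR and 0.0748 in DESeq2). Leaving out any library kept it between -0.65 and -0.58, with an unadjusted p of 0.0530 to 0.154 in edgeR. Pcdhga9 had 99 counts in WT 1 and 138 in WT 2, against 85 in cKO 1 and 78 in cKO 2. The groups did not overlap, and the log2 fold change was -0.55 (standard error 0.30). Pcdhga1, the first γ member, had 50 counts in WT 1 and 41 in WT 2, against 32 in cKO 1 and 31 in cKO 2. Both cKO libraries were lower, with WT 1 the highest, and the log2 fold change was -0.55 (standard error 0.38). Of the 11 Pcdhga genes, 9 had a log2 fold change below 0 and the median was -0.25, whereas the 7 Pcdhgb genes had a median of -0.01. Without WT 2, 7 of the 11 and 1 of the 7 were below 0, and without WT 1 11 of the 11 and 5 of the 7, counts taken after the values were seen, and the families were not compared by a test.

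The most abundant γ transcripts did not pass the test. Pcdhgb6 had 379 counts in WT 1 and 550 in WT 2, against 371 in cKO 1 and 415 in cKO 2. WT 2 alone was high, and the log2 fold change of -0.25 (standard error 0.22) was 0.01 without WT 2. Pcdhgc3, a C-type member known to be made broadly in neural cells, had 756 counts in WT 1 and 820 in WT 2, against 780 in cKO 1 and 856 in cKO 2. It was even over the libraries, at 44.1 ± 0.223 CPM in WT and 45.0 ± 3.21 CPM in cKO (SD, n = 2 each), with a log2 fold change of 0.04 (standard error 0.16). Pcdhgc4, known to be needed for the survival of neurons, had 205 counts in WT 1 and 347 in WT 2, against 222 in cKO 1 and 220 in cKO 2. WT 2 alone was high, and the log2 fold change was -0.33 (standard error 0.27), or 0.06 without WT 2. Pcdhgc5, the last member, had 71 counts in WT 1 and 85 in WT 2, against 56 in cKO 1 and 68 in cKO 2. The cKO libraries lay below WT, cKO 2 by little in CPM, and the log2 fold change was -0.34 (standard error 0.32).

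**Figure D3:**
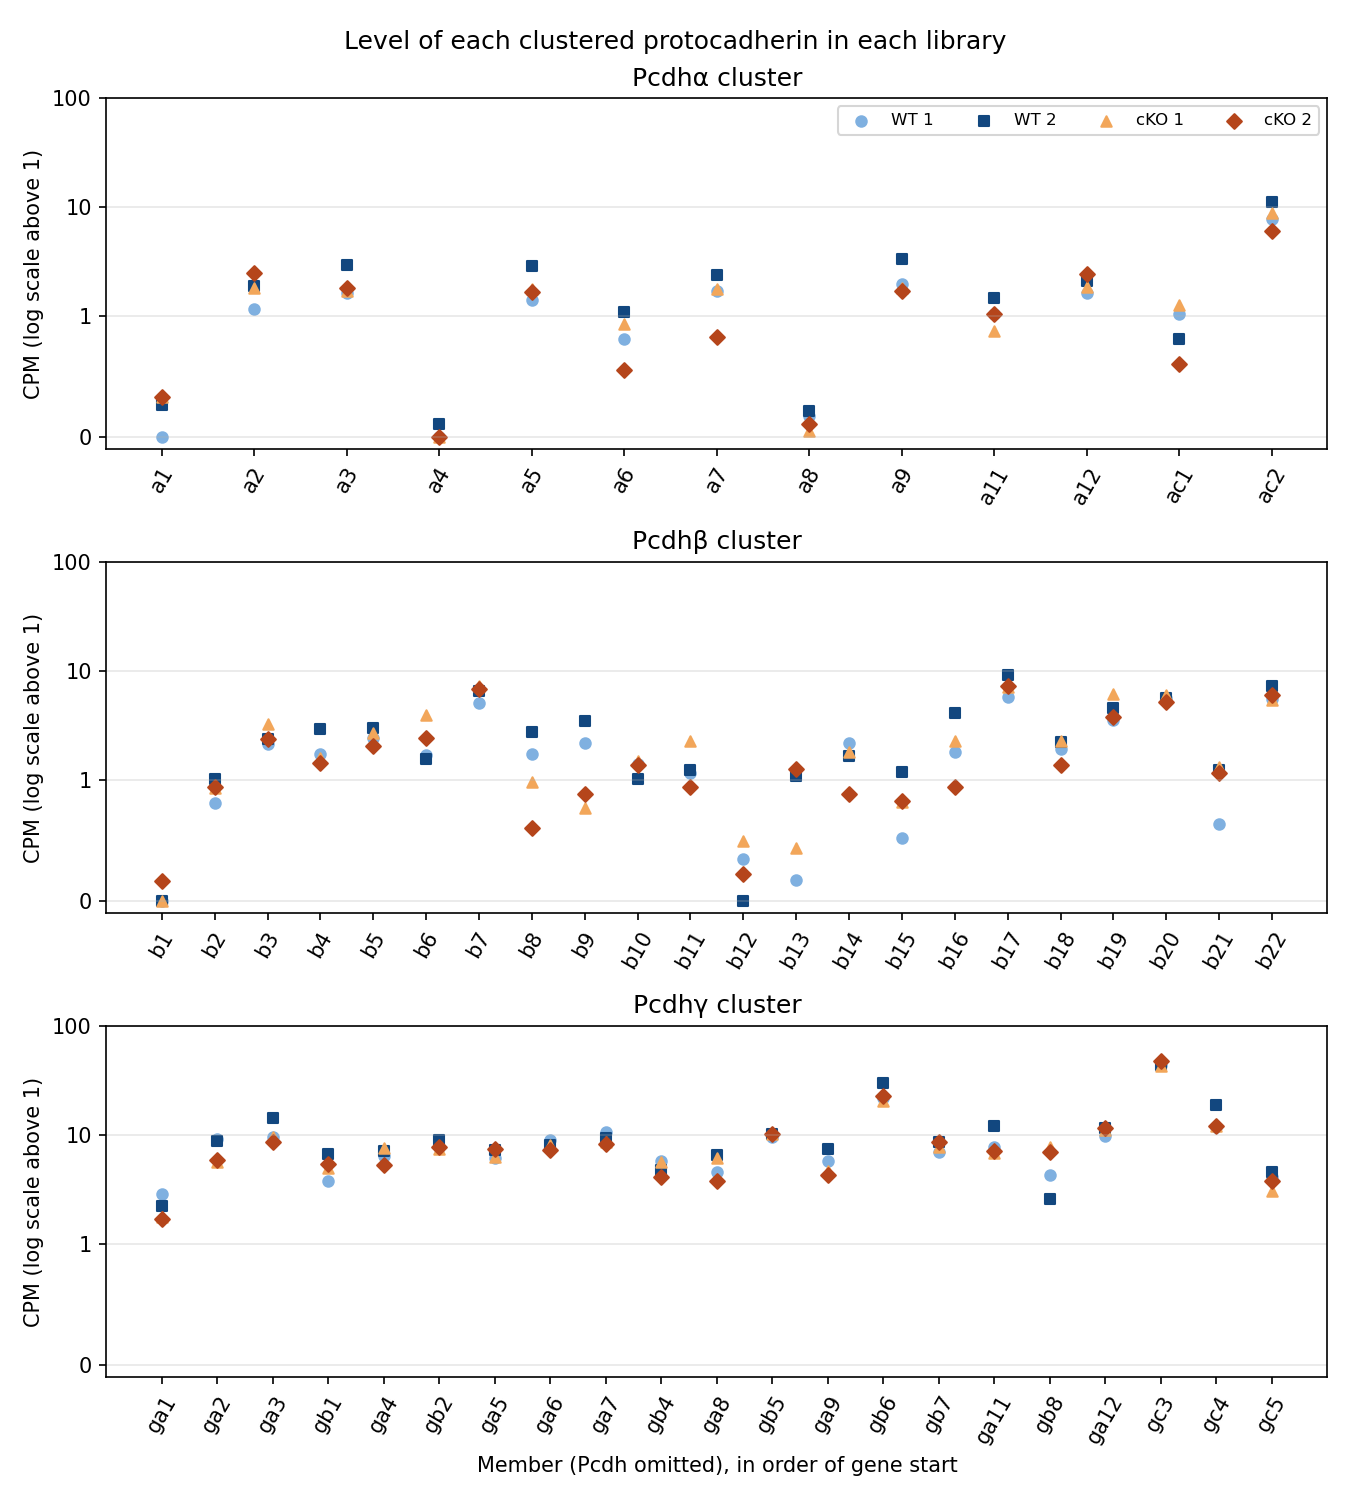
Each symbol gives the CPM of a member in 1 library, in order of gene start, on an axis that is linear up to 1 CPM and logarithmic above. Levels can be compared between libraries at a member, and between members only per length. Pcdhgc3 runs from 42.8 to 47.3 CPM, Pcdhb8 and Pcdhb9 are lower in both cKO libraries, and WT 2 is most often the highest symbol.

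Levels were set against each other as CPM per kilobase of exon that no other annotated gene covers, a length that leaves out the shared constant exons, while the counts may hold reads on them and so raise α and γ against β. The median over members was 0.734 for α, 0.452 for β and 2.88 for γ. Over all exon bases the α median was 0.311, below that of β. Pcdhgc3 was highest at 24.5, from 23.5 to 25.98 over the libraries, followed by Pcdhgb6 at 9.26 (7.93 to 11.6), Pcdhga11 at 6.71 (5.41 to 9.58) and Pcdhgb7 at 4.38 (3.86 to 4.74). Pcdhgc3 did not overlap with Pcdhgb6, and Pcdhga11 did not overlap with Pcdhgb7. Each of the other 53 pairs of neighbours in the order overlapped in range over the libraries, and their order was not tested. Ranges do not compare genes within a library, where an order can still hold. Pcdhgb6 exceeded Pcdhga11 in each library, at 8.59 against 6.20 in WT 1 and 11.6 against 9.58 in WT 2. The values were 7.93 against 5.41 in cKO 1 and 8.94 against 5.63 in cKO 2. The highest α member was Pcdhac2 at 2.79, at place 12 of 56, and the highest β member was Pcdhb7 at 1.84. On the variable exon alone, a length chosen after the data were seen, Pcdhgc3 remained highest at 13.2 and Pcdhgb6 followed at 9.26. Pcdhga11 took place 5 there at 3.19, close to Pcdhgb7 at 3.08, so the step between their means depended on the length used.

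Over all members of a cluster, rank correlations of position with level and with fold change ran from -0.09 to 0.35. The rank correlation of level per kilobase with position was 0.35 over 13 α, 0.07 over 22 β and 0.16 over 21 γ members. For the log2 fold change it was -0.09 over 10 α, 0.00 over 20 β and 0.28 over 21 γ members tested. These are descriptions across genes that share libraries and sequence. Without the C-type members the value for fold change was -0.33 for α and 0.44 for γ. Pcdhb8 and Pcdhb9 are neighbours in order, but the steps from Pcdhb7 and to Pcdhb10 changed direction.

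Sequence shared between members limits how a read can be placed. Of all 50-base stretches of the variable exon, the share that also occurs in a transcript of another gene had a median of 15.3% for α, 4.48% for β and 10.4% for γ members. It was 85.9% for Pcdha4, 64.2% for Pcdhb12 and 51.5% for Pcdhga11, whose counts are therefore uncertain. For the called members it was 6.12% in Pcdhb8, 8.75% in Pcdhb9 and 9.18% in Pcdhgb8. The gene sharing most with Pcdhb8 was Pcdhb6. For Pcdhgc3 it was 45.3%, mostly with BC037039, an antisense gene that overlaps its first exon, and without known strand handling their reads cannot be told apart. How reads with several matches or on constant exons were counted is not given in the sources used here.

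No listed gene that controls the clusters or acts with the proteins was called, against 0.811% of all genes tested. Of 22 regulators, 14 had a log2 fold change below 0 and 8 above, and of 17 partners and downstream genes 13 were below and 4 above. The share below 0 was 52.1% over all genes tested. In both lists every unadjusted p exceeded 0.05, in edgeR as in DESeq2. Over all genes tested, 1.23% had a p of at most 0.05 in edgeR and 0.787% in DESeq2. Ctcf, which binds the promoters, had 3018 counts in WT 1 and 3280 in WT 2, against 3564 in cKO 1 and 2893 in cKO 2. The groups overlapped, and the log2 fold change was 0.02 (standard error 0.16). The cohesin genes Rad21 and Smc3 had log2 fold changes of -0.07 (standard error 0.17) and -0.09 (0.20), the loader Nipbl 0.04 (0.22) and the releasing factor Wapl -0.13 (0.23). The silencing genes Setdb1, Smchd1 and Dnmt3b had log2 fold changes of 0.02 (standard error 0.14), -0.08 (0.21) and 0.04 (0.25). The kinase genes Ptk2 and Ptk2b, whose products the protocadherins bind and inhibit, had log2 fold changes of 0.12 (standard error 0.15) and -0.26 (0.37). cKO 1 was the highest library for 18 of the 22 regulators and 6 of the 17 partners and downstream genes, against 24.5% of genes tested. cKO 2 was the lowest for 18 of the 22 and 11 of the 17, against 35.1% of genes. In Stag2 the values were 106 CPM in WT 1 and 84.7 in WT 2, against 111 in cKO 1 and 41.0 in cKO 2. Without cKO 1, 14 genes of the 2 lists had an unadjusted p of at most 0.05, all lower, against 15.0% of genes, and Atrx and Stag2 were called, against 3.14% of genes. Without cKO 2, Atrx and Nipbl had such a p, against 2.67% of genes, both higher and neither called. These counts over the lists were added after the values were seen.

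Genes lying among the members were few and mostly low in counts. Of 14, the genes Gm37751, Gm36858, Gm10545, Gm19035, Gm38097, Gm18529, Gm37446 and Slc25a2 had too few counts to test. Among the 6 tested, every unadjusted p exceeded 0.05, in edgeR as in DESeq2, where 1.23% and 0.787% of all genes did not. Taf7, a subunit of the general transcription factor TFIID between the β and γ clusters, had 402 counts in WT 1 and 438 in WT 2, against 508 in cKO 1 and 501 in cKO 2. Both cKO libraries were above WT, with a log2 fold change of 0.25 (standard error 0.17). Gm10544, on the other strand within the span of Pcdhac2, had 110 counts in WT 1 and 132 in WT 2, against 142 in cKO 1 and 160 in cKO 2. The cKO libraries were higher by little, with a log2 fold change of 0.31 (standard error 0.26). The log2 fold changes of Gm8242, 3222401L13Rik, Gm26672 and BC037039 were -0.18, 0.10, -0.20 and 0.18.

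The wider region was examined after the members' values were seen. Within 5 Mb of the STING gene, 0 of 99 other genes tested were called, against 0.811% of all genes tested. Of the 99, 2 had an unadjusted p of at most 0.05 in edgeR, against 1.23% of all genes, and 2 in DESeq2, against 0.787%. Over the rest of chromosome 18, 2 of 278 genes (0.719%) were called. These counts of other genes lay near the shares over all genes. The 3 called members were thus the only calls within that distance, and whether their place on the chromosome of the targeted gene had a part in them was not tested.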

How the data were processed

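RNA-seq counts of 4 libraries (2 WT, 2 cKO) were used as deposited by the authors, as raw reads per gene. The submitters' processing notes name Bowtie2 2.2.3, TopHat2 2.0.12, HTSeq 0.6.0 and the build mm9, with no role given, whereas 97.3% of the 27232 genes found in GENCODE M21 had a start or end within 1 base of GRCm38. Of 27304 rows, 11 (0.0403%) name no gene and were left out. A table of WT 1 and cKO 1 held identical counts for all 21342 shared genes. The authors' comparison columns (fold changes, p-values) and mean normalized counts were not used. Strand handling and removal of duplicates are not given in the sources used here.

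CPM is a count over the library's total on genes. For a count of 0, 3 counts are the upper limit allowed, 0.162 to 0.174 CPM, for counting error only. Genotypes were compared by the quasi-likelihood test of edgeR 4.0.16 under R 4.3.3 (TMM, filterByExpr, no covariate, Benjamini-Hochberg adjustment over 16145 genes), after a test on simulated counts. Alternatives were DESeq2 1.42.0, RLE and upper-quartile scaling, filters of 1 and of 10 counts, a replicate block, leaving out each library, and other thresholds. Summaries used Python 3.11.15, pandas 2.3.3 and scipy 1.17.1.

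Genes named were, per cluster, the first and last member, the 3 highest in CPM, the 2 lowest and 2 highest in log2 fold change, all C-type and called members, fixed regulators and partners, and genes among the members. The members and lists were chosen with earlier results of these data known.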

Additional observations from a re-analysis of the deposited data

How the results depend on the processing

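Pcdhb8, Pcdhb9 and Pcdhgb8 were the members called with RLE or upper-quartile scaling, either count filter, DESeq2 and the replicate block. With a fold of at least 1.5, 5 members passed, where 172 of the 16145 genes tested did. With an unadjusted p of at most 0.05 alone, 5 members passed, against 1.23% of genes, and 0 passed at an adjusted p under 0.05. Without 1 library, 2 to 4 members were called (Pcdhb9 in each case), 22 to 39 were below 0, and 104 to 531 genes were called. Without WT 2, 2 members were called against 2.81% of genes and 22 were below 0 against 47.9%, without WT 1 39 were below 0 against 49.4%, and without cKO 1 3.14% of genes were called. The library left alone in its group is then assumed to vary like the other group.

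Over all genes, 131 were called, 405 without a filter beyond 1 count, 72 with at least 10 counts in every library, 65 by DESeq2, 199 at an unadjusted p of at most 0.05 alone and 0 at an adjusted p under 0.05. An adjusted p under 0.05 was reached by 65 genes without the filter, 5 with the replicate block, 7 without WT 1, 116 without WT 2, 105 without cKO 1 and 0 in the other fits. With the replicate block 208 were called, and the log2 fold change of Pcdhac1 was -0.031. Same-numbered libraries correlated at 0.10 in their deviations, and with 2 pairs and no label of a shared litter the numbers do not pair them.

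Medians ran from -0.60 to -0.06 for α, -0.29 to 0.16 for β and -0.24 to 0.0096 for γ when a library was left out, and log2 ratios of the sums from -0.53 to 0.069, -0.24 to 0.16 and -0.23 to -0.019. The median level per kilobase was 0.311 for α, then below β, and 1.58 for γ over all exon bases, and 2.67 for γ on the largest exon and on the variable exon, the latter chosen after seeing the data. Of 399 values of 40 named genes over the alternative fits, 366 kept their direction and side of the thresholds. Direction turned in 22 genes, none above 0.44 in size, nearly always when a library was left out. Log2 fold changes then ran from -0.73 to 0.15 in Pcdha3, -0.35 to 0.080 in Pcdhb22, -0.37 to 0.35 in Pcdhb17, -0.33 to 0.94 in Pcdhb11, -0.033 to 0.12 in Pcdhgc3, -0.46 to 0.0091 in Pcdhgb6, -0.63 to 0.064 in Pcdhgc4, -0.039 to 0.24 in Pcdhga12 and -0.58 to 0.45 in Pcdhac1. They ran from -0.12 to 0.16 in Ctcf, -0.041 to 0.10 in Setdb1, -0.31 to 0.34 in Nipbl, -0.25 to 0.10 in Rad21, -0.42 to 0.21 in Smchd1, -0.42 to 0.19 in Smc3, -0.081 to 0.19 in Dnmt3b and -0.53 to 0.19 in Wapl. In Gm8242 the range was -0.93 to 0.33, in 3222401L13Rik -0.20 to 0.49, in Gm26672 -0.47 to 0.047, in BC037039 -0.11 to 0.43 and in Tmem173 -0.13 to 0.18. Without a turn, they ran from -0.65 to -0.030 in Pcdhac2, -0.93 to -0.13 in Pcdha9, 0.18 to 0.92 in Pcdha2, 0.0071 to 0.43 in Pcdha12, 0.10 to 0.52 in Pcdhb7, -0.73 to -0.32 in Pcdhga9, -0.71 to -0.35 in Pcdhga1 and -0.49 to -0.19 in Pcdhgc5. The cause was not tested.

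Depth limits the α and β clusters most: 7 members had under 10 counts in at least 1 library, and the median standard error of the log2 fold change was 0.45 for α, 0.43 for β and 0.27 for γ. Reads that match several genes limit the members with shared sequence, and 2 libraries per group limit every comparison.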

Other observations

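Other marker lists also differed between libraries, with no part of these differences in the members' values tested. All 4 choroid plexus genes tested were called lower in cKO (Aqp1, Htr2c, Kcne2 and Otx2), and of the 6 meningeal and mesenchymal genes tested 2 were (Col1a1 and Col1a2), against 0.669% of all genes, with WT 1 the highest library in each list. In Otx2, Col1a1 and Col1a2 WT 2 lay between the cKO libraries, and in Kcne2 it lay below both. In Htr2c and Aqp1 it lay above both. Htr2c was at 0.971 CPM in WT 2, against 0.219 in cKO 1 and 0.387 in cKO 2. Aqp1 was at 1.56 CPM in WT 2, against 1.54 in cKO 1 and 0.442 in cKO 2. Without WT 1, a fit added for these lists after their values were seen, 0 of the 4 and 0 of the 6 were called. The 7 blood genes summed to 900 CPM in WT 1 and 406 in WT 2, against 338 in cKO 1 and 520 in cKO 2, with Hbb-y the most abundant. The 5 endothelial genes summed to 175 CPM in WT 1 and 129 in WT 2, against 113 in cKO 1 and 112 in cKO 2, and the 5 microglial genes to 37.4, 26.6, 24.0 and 29.4 CPM. The 8 genes of the ventral telencephalon summed to 1022 CPM in WT 1 and 966 in WT 2, against 648 in cKO 1 and 984 in cKO 2, so the sum was low in cKO 1 alone, although Gad1, at 80.7 CPM in WT 1 and 72.9 in WT 2, against 57.7 in cKO 1 and 54.2 in cKO 2, and Gad2 were lower in both cKO libraries. The 5 Cajal-Retzius genes summed to 335 CPM in WT 1 and 390 in WT 2, against 383 in cKO 1 and 337 in cKO 2. Reln, at 251 CPM in WT 1 and 319 in WT 2, against 315 in cKO 1 and 256 in cKO 2, carried that sum. Trp73, Lhx5 and Lhx1 were lower in WT 2 and cKO 1 than in WT 1 and cKO 2. Calb2 was at 25.6 CPM in WT 1 and 24.8 in WT 2, against 20.1 in cKO 1 and 20.9 in cKO 2. The 4 intermediate progenitor genes summed to 782 CPM in WT 1 and 828 in WT 2, against 878 in cKO 1 and 834 in cKO 2. Of the diencephalon and midbrain list, 6 of 8 genes were found, En1 and En2 were not analysed here, and the sum was 29.0 CPM in WT 1 and 18.1 in WT 2, against 17.1 in cKO 1 and 17.7 in cKO 2.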
